A study of Mus musculus with 155 samples.

Results

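RA-treated cells that carry H3.3K27L were compared with undifferentiated ESCs of the same line in 9 RNA-seq libraries, chosen by their labels from the 42 RNA-seq libraries and the 155 samples of the series. The KH2 line is a mouse ESC line with an inducible locus, here carrying an extra copy of the histone variant H3.3 with a SNAP and an HA tag, switched on by doxycycline (Dox). H3.3K27L replaces lysine 27 of H3.3 with leucine, a residue that carries neither acetylation nor methylation, and the study set it beside H3.3K27M and WT-H3.3. The untagged H3.3 genes of the cells remain in all 3 lines, and the labels and methods do not say how many clones make up a line.

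The RA-treated group had 2 libraries, both numbered replicate 1, taken 24 h and 72 h after Dox. The methods describe RA at 1 µM for 4 days without LIF or the 2i inhibitors, with Dox begun 24 h after RA, so that 72 h of Dox ended at 96 h of RA. How long the 24 h library had been in RA is not given in the sources used here. The undifferentiated group had 7 libraries, grown in LIF and 2i, with 2 replicates at 4 h, 8 h and 24 h of Dox and replicate 1 at 72 h. The replicate 2 library of 72 h held 68378 counts and was left out. RA treatment, medium and loss of LIF and 2i all separate the groups, so their parts in a difference cannot be told apart, and each RA time stands on 1 library.

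RA, a derivative of vitamin A, enters the nucleus and binds RAR and RXR receptors, which sit on paired hexamer motifs in the DNA and switch on their target genes. In ESCs it ends the pluripotency program, opens the Hox clusters and yields neural cells or extraembryonic endoderm, depending on the culture. Extraembryonic endoderm is the lineage of the yolk sac, which lines its basement membrane with laminins and collagen and takes up nutrients through endocytic receptors.

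Total counts were 7464040 and 3268238 in the 24 h and 72 h RA-treated libraries and ranged from 6336754 to 21161392 in the ESCs. Levels are given in CPM, counts scaled to a common library total with TMM factors, and a gene was called at a Benjamini-Hochberg adjusted p under 0.05 by the quasi-likelihood test of edgeR with a change of more than 2-fold. Of 13291 genes tested, 3052 (23%) were called higher and 2276 (17.1%) lower in RA-treated cells, or 40.1% in all. Without the 24 h RA-treated library the lower calls numbered 3914. The median log2 fold change of all genes was 0.01. The RA-treated libraries lay both above all 7 ESC libraries for 24.8% of genes and both below them for 25.7%. The 24 h library alone lay above all 7 for 37.3% of genes and below them for 35.2%, and the 72 h library for 37.9% and 44.0%. The 72 h library read lower than the 24 h library for long transcripts, by a median of 0.66 on the log2 scale in the decile of the longest genes, and higher by 0.34 in the decile of the shortest. Which library kit was used for each sample is not given in the sources used here, and the part of transcript length in the results was not tested.

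The labels call the RA-treated cells neural progenitors, so a short list of markers of each cell type was read first. Markers of extraembryonic endoderm (Gata4, Gata6, Sox17, Foxa2, Dab2 and Lama1) summed to 6719 CPM at 24 h and 2166 CPM at 72 h, against 83.1 to 155 CPM in ESCs. Lama1 made up most of the sum at 24 h and in ESCs, but not at 72 h, and 6 of 6 were called higher. Markers of neural progenitors summed to 171 and 84.5 CPM against 33.6 to 85.7 CPM, so the 72 h sum stood within the range of the ESCs. Nes made up most of the sum at 24 h and in ESCs. At 72 h Nes lay below every ESC library, while Pax6 and Zic1 lay above every one. A further marker, Sox1, had no matching gene and was not read. Of these, Pax6, Sox3 and Zic1 were called higher, Nes was not called and Hes5 was too low to test, at 0.27 and 0.987 CPM. Sox3 stood at 4.45 CPM at 24 h, within the ESC range, and 21.4 CPM at 72 h. Its log2 fold change was 1.67 with both libraries and 0.14, with the call lost, without the 72 h library. The call was also lost without the ESC library of 24 h replicate 1, 4 h replicate 1 or 4 h replicate 2, at 1.61, 1.53 and 1.59. The extraembryonic endoderm markers thus went against the label, which some of its own markers bore out, and the cells are called RA-treated cells here. In bulk RNA, fewer cells of a type and less RNA per cell cannot be told apart.

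Markers of neurons summed to 22.8 and 31.6 CPM against 281 to 491 CPM in ESCs. Fibroblast (MEF) markers summed to 254 and 51.0 CPM against 1.91 to 12.2 CPM. Among them Col1a1, Col1a2, Col3a1 and Dcn were called higher, while Lum had 0.27 CPM at 24 h and no count at 72 h, Postn 3.37 and 0.329 CPM, and Thy1 9.18 and 1.32 CPM inside the ESC range of 1.09 to 10.3 CPM. Oligodendrocyte markers summed to 352 and 200 CPM against 37.9 to 51.6 CPM, with Pdgfra and Mbp called higher and Olig2 lower. Trophoblast markers summed to 75.7 and 68.1 CPM against 1.47 to 7.76 CPM, with no count for Elf5 in either RA-treated library. Mesoderm markers stood at 0.81 and 1.64 CPM against 4.99 to 20.6 CPM, with Msgn1 and Mesp1 at 0 counts in both. Neural crest markers stood at 73.2 and 45.4 CPM against 33.6 to 57.5 CPM, astrocyte markers at 29 and 37.5 CPM against 5.27 to 10.8 CPM, and blood markers at 0.81 and 0.99 CPM against up to 0.49 CPM.

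Genes of the naive state fell almost without exception. Of 23 naive pluripotency genes tested (25 listed), 21 fell, with a median log2 fold change of -6.38 against 0.01 for all genes. None rose by edgeR, by DESeq2 or at an unadjusted p under 0.05. Esrrb, an orphan nuclear receptor of the naive network, was read at 2.02 and 0.987 CPM in the 24 h and 72 h RA-treated libraries, against a lowest, median and highest of 733, 865 and 960 CPM in the 7 ESC libraries. Both RA-treated libraries lay far below every ESC library, and the log2 fold change was -9.0 ± 0.35 (SE, edgeR adjusted p = 3.15e-08). Nanog, a homeodomain factor of the same network, had 3.37 and 1.32 CPM against 980, 1243 and 1450 CPM, a log2 fold change of -8.91 ± 0.42. Nr5a2 (0.405 and 0.658 CPM against 124, 142 and 162 CPM) fell by 8.18 and Fgf4, the autocrine growth factor of ESCs, fell by 9.34 on the log2 scale. Tcl1, which promotes AKT signalling, had no count in either RA-treated library against 59.9 to 92.1 CPM in ESCs, which makes it at least 278-fold lower, with a floor of 3 counts over the RA-treated group.

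The marks of naive cells did not all reach such lows. Klf4, a Krüppel-like factor of the naive network, stood at 208 and 212 CPM against 509, 571 and 601 CPM, a log2 fold change of -1.42 ± 0.17. Klf5 had 184 and 390 CPM against 278 to 516 CPM and was not called. Fbxo15, an F-box protein gene used as a reporter of pluripotency, had 36.4 CPM at 24 h, below all ESC libraries, and 238 CPM at 72 h, inside their range of 198 to 379 CPM, and was not called with both libraries. The summed level of the naive list was 1045 CPM at 24 h and 1589 CPM at 72 h against 9470 to 11206 CPM.

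Of 22 general and primed pluripotency genes tested, 14 fell and 2, Lin28b and Cdh2, rose, with a median log2 fold change of -2.38. Pou5f1, which encodes OCT4, had 5.40 and 0.329 CPM against 548, 687 and 829 CPM, and Sox2, its partner and a factor of neural progenitors as well, had 23.1 and 24.0 CPM against 493, 513 and 531 CPM. Their log2 fold changes were -7.73 ± 0.64 and -4.45 ± 0.20. The RA-treated libraries agreed closely for Sox2, whereas Pou5f1 was lower at 72 h than at 24 h. Tdgf1, a co-receptor of Nodal, fell by 10.1 on the log2 scale, from a median of 677 CPM in ESCs to 0.54 and 0.658 CPM. Lefty2, a Nodal inhibitor, fell by 8.19. Pcolce2, an extracellular enhancer of collagen processing that belongs to no list, was among the 6 lower genes of the lowest adjusted p (1.75 and 1.97 CPM against 99.4 to 118 CPM).

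**Figure D1:**
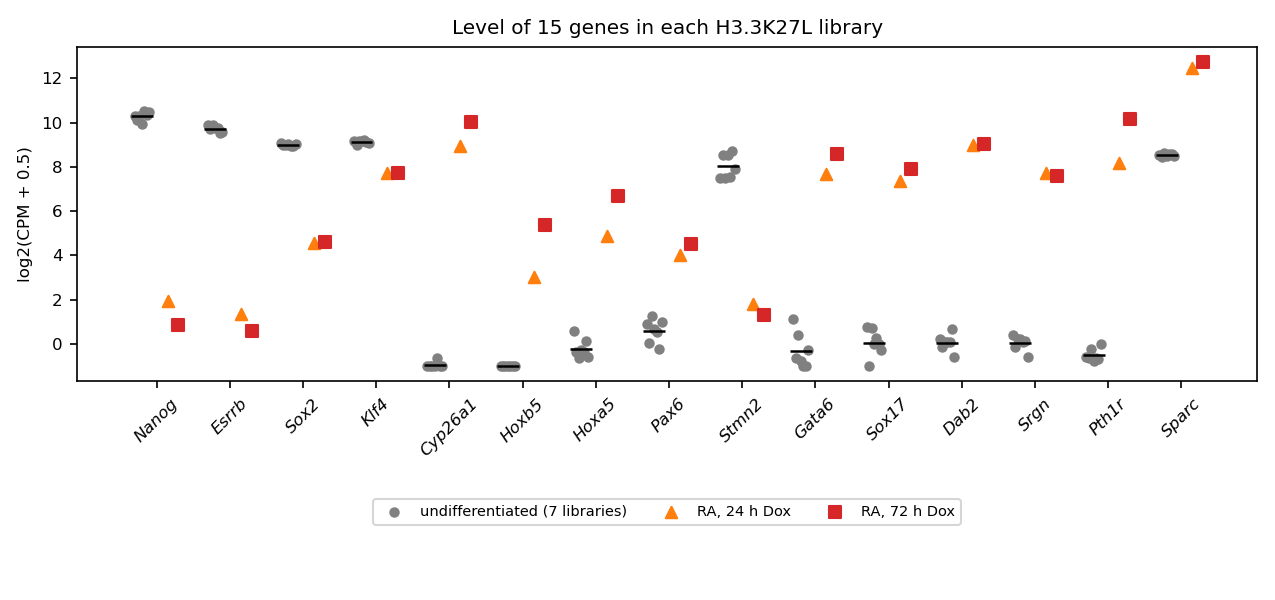
Levels of 15 genes as log2(CPM + 0.5) in each H3.3K27L library, with 7 grey ESC points and their mean as a line, and the RA-treated libraries of 24 h Dox (triangle) and 72 h Dox (square). Nanog and Esrrb drop from at least 733 CPM to at most 3.37 CPM, whereas Gata6, Dab2, Srgn and Pth1r lie at or under 1.69 CPM in every ESC library and at 190 CPM or more in both RA-treated libraries.

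Most genes of the RA response rose. Of 23 RA response genes tested (27 matched, 1 on chromosome 8 and 3 too low), 16 rose and 2 (Rarg and Cdx1) fell, with a median log2 fold change of 2.99. The shares were 69.6% and 8.7%, against 23% and 17.1% of all genes. Members near 0 in ESCs passed the filter, and so were tested, only where they rose. The promoters of Cyp26a1 and Rarb are shown because both are textbook direct targets and hold the paired receptor motif. Each sequence is the 250 bases before the RefSeq start on the coding strand (GRCm38.p6, another build than the mm9 of the counts), for Cyp26a1 chr19:37697558-37697807 (+) and for Rarb chr14:16575477-16575726 (-). Capitals mark 2 hexamers, each of the form AGGTCA, or the form AGTTCA, or the form GGTTCA, or the form GGGTCA, in the same direction 5 bases apart.
Cyp26a1: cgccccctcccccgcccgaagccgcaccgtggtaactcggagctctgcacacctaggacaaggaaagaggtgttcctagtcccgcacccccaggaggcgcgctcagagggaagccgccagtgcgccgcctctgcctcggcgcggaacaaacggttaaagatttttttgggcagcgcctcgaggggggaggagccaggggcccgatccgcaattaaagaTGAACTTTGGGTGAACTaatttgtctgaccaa
Rarb: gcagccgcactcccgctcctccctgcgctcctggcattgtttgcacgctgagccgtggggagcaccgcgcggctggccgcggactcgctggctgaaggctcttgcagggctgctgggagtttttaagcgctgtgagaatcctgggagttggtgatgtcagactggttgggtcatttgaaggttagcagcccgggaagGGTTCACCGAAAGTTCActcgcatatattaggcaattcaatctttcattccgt

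In Rarb the motif lies 53 to 37 bases before the start, and in Cyp26a1 it lies 32 to 16 bases before the start and reads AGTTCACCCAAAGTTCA on the opposite strand. Searched on both strands, 32 of 32851 promoter windows of 250 bases before and 50 after a start held the motif (0.0974%). Of the 19 RA response genes with a window 2 did (Cyp26a1 and Rarb), as did 1 of 9 erythroid and blood genes (Hbb-y). The hexamer forms searched include those of Cyp26a1 and Rarb, and enrichment was not tested. A match of letters is a description and not a measured site.

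Cyp26a1, the enzyme that degrades RA, was read at 494 and 1055 CPM in the RA-treated libraries and had 1 count in all 7 ESC libraries together. The pooled ratio was 43543-fold, with an exact 95% counting interval of 7812 to 1720091 that covers counting error only. Cyp26b1, a second RA hydroxylase, had 10.7 CPM at 24 h and 466 CPM at 72 h against at most 0.277 CPM, so its level differed widely between the RA-treated libraries while both lay above all ESCs. Stra6, the receptor for retinol uptake, had 70.1 and 53.6 CPM against at most 0.326 CPM (log2 fold change 9.39 ± 0.48). Rarb, a receptor that RA induces, had 8.37 CPM at 24 h and 0.987 CPM at 72 h against at most 0.163 CPM, which was above all ESC libraries but too low for the test. Rara, the receptor already present in ESCs, had 42.5 and 22.4 CPM against 44.5 to 72.8 CPM and was not called at the 2-fold limit. Meis1, a Hox cofactor, had 127 and 75 CPM against 1.25, 1.52 and 2.61 CPM, a log2 fold change of 5.91 ± 0.28. Cdx1, a caudal homeobox gene that responds to Wnt as well as RA, was among the 2 that fell, from 42.7 to 134 CPM in ESCs to 2.29 and 0.329 CPM. Zfp503, a zinc finger gene on chromosome 14, had 109 and 64.1 CPM against 0.083 to 1.95 CPM.

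Most of the tested Hox genes, which set position along the body axis, rose. Of 29 tested (38 matched, 9 too low), 25 rose and 1, Hoxc12, fell, with a median log2 fold change of 5.05. The filter passed a gene on its RA-treated libraries alone, so a gene near 0 in ESCs was tested only where it rose. With at least 10 counts required in every library, no Hox gene was called higher. Hoxb5 had 7.69 CPM at 24 h and 40.5 CPM at 72 h and no count in any ESC library, at least 381-fold higher with a floor of 3 counts over the 7 ESC libraries. Hoxb6 (8.23 and 17.4 CPM) and Hoxb3 (5.13 and 3.95 CPM) also had no count in ESCs and were at least 241-fold and 106-fold higher. Hoxb1 and Hoxb8 had 3 ESC counts each, and their pooled ratios were 188-fold (exact 95% counting interval 62.3 to 930) and 429-fold (145 to 2099). Hoxa5 rose from 0.154 to 1.01 CPM in ESCs to 28.5 and 103 CPM. The Hox and RA response lists both stood higher at 72 h, with median log2 differences from the ESC mean of 3.08 at 24 h and 3.92 at 72 h for Hox and 2.10 and 3.26 for the RA response. Hoxc12, in the posterior part of its cluster, fell from 2.46 to 5.22 CPM to 0.675 CPM and no count.

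Among extraembryonic endoderm genes, 25 of 28 tested rose (36 listed) and 1, Apoe, fell, with a median log2 fold change of 6.12. As for Hox, members near 0 in ESCs were tested only where they rose. Of the endoderm transcription factors, Gata6 had 204 and 378 CPM against a lowest, median and highest of 0, 0.137 and 1.69 CPM, and Sox17 had 165 and 238 CPM against 0, 0.498 and 1.18 CPM. Foxa2 had 93.3 and 415 CPM against at most 0.676 CPM. Gata4 (chromosome 14) had 544 CPM at 24 h and 154 CPM at 72 h against 4.07, 5.17 and 9.29 CPM. Their log2 fold changes lay between 5.83 and 9.98, and no RA-treated library overlapped the ESCs for any of the 4 genes.

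Dab2, the endocytic adaptor of visceral and parietal endoderm, had the lowest adjusted p of all genes, with 505 and 517 CPM against 0.163, 0.563 and 1.11 CPM (log2 fold change 9.73 ± 0.28, edgeR adjusted p = 8.33e-09). Cubn, the cobalamin receptor that works with Dab2 in yolk sac uptake, had 486 and 64.1 CPM against at most 0.326 CPM. Pth1r, the receptor for parathyroid hormone-related peptide that marks parietal endoderm, had 292 and 1139 CPM against 0.083, 0.139 and 0.489 CPM. Srgn, a proteoglycan core protein, had 209 and 190 CPM against 0.163 to 0.845 CPM. Of the basement membrane genes, Sparc had 5671 and 6755 CPM against 348, 373 and 391 CPM (log2 fold change 4.07 ± 0.14). Lama1, a laminin chain, had 5207 CPM at 24 h but 464 CPM at 72 h, against 76.2 to 148 CPM. Col27a1 (121 and 151 CPM against 2.61 to 4.06 CPM), a fibrillar collagen, and Foxq1 (84.5 and 110 CPM against at most 0.205 CPM), a forkhead factor, are in no list and were among the 6 higher genes of the lowest adjusted p. Apoe, a lipid carrier, went the other way, from 597 to 1216 CPM in ESCs to 254 and 61.2 CPM.

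Neural genes moved in both directions. Of 28 neural progenitor genes tested, 18 rose and 4 fell, with a median log2 fold change of 1.99. The shares were 64.3% and 14.3%, against 23% and 17.1% of all genes, and members near 0 in ESCs were again tested only where they rose. Pax6, a homeobox factor of neural progenitors, had 15.5 and 22.4 CPM against 0.369, 1.08 and 1.89 CPM (log2 fold change 4.05 ± 0.41, edgeR adjusted p = 1.61e-05). Zic1 (14.8 and 18.8 CPM against at most 0.358 CPM) and Sox9, shared with glia and neural crest (28.1 and 51.0 CPM against at most 0.338 CPM), lay above all ESC libraries. Olig1 and Olig2, factors of the ventral cord and oligodendrocytes, were higher in ESCs than in RA-treated cells, with Olig2 at 0 and 1.97 CPM against 31.4 to 46.9 CPM. Nes had 136 CPM at 24 h and 21.1 CPM at 72 h around an ESC range of 26.6 to 81.6 CPM and was not called.

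Of 28 proneural and neuron genes, 8 rose and 8 fell (28.6% each, against 23% and 17.1% of all genes). The median log2 fold change was -0.14, but it ranged from -1.58 without the 24 h to 0.28 without the 72 h RA-treated library and was 0.50 in the fit of 29 libraries. Stmn2, a tubulin-binding protein of growing axons, had 2.97 and 1.97 CPM against 180, 240 and 419 CPM, a log2 fold change of -6.74 ± 0.58. Tubb3, neuronal tubulin on chromosome 8, was left out of the test and had 11.3 and 12.8 CPM against 53.7 to 165 CPM. Dcx, the doublecortin of migrating neurons, had 2.43 and 2.96 CPM with 1 count in all ESC libraries (171-fold, exact 95% counting interval 28.2 to 7013). Lhx1, a LIM homeobox factor, had 3.37 and 4.93 CPM and no count in ESCs, at least 84.6-fold higher. Map2 and Rbfox3, genes of mature neurons, overlapped the ESC range. Of 42 axon guidance genes, 24 rose and 4 fell (57.1% and 9.52%), with a median log2 fold change of 1.75. Without the 24 h RA-treated library 21 rose and 8 fell. Robo2, a Slit receptor, had 65.6 and 29.3 CPM against at most 0.139 CPM. As for Hox, members of the neuron and axon guidance lists near 0 in ESCs were tested only where they rose. Robo2, Unc5c, Sema3a and Epha3 had 2, 3, 1 and 1 counts in the 7 ESC libraries together. Astrocyte and oligodendrocyte genes gave 5 higher and 6 lower calls of 13, with a median of -0.23, and Pdgfra, a receptor that extraembryonic endoderm shares with oligodendrocyte precursors, rose from 0.332 to 3.33 CPM to 337 and 188 CPM.

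**Figure D2:**
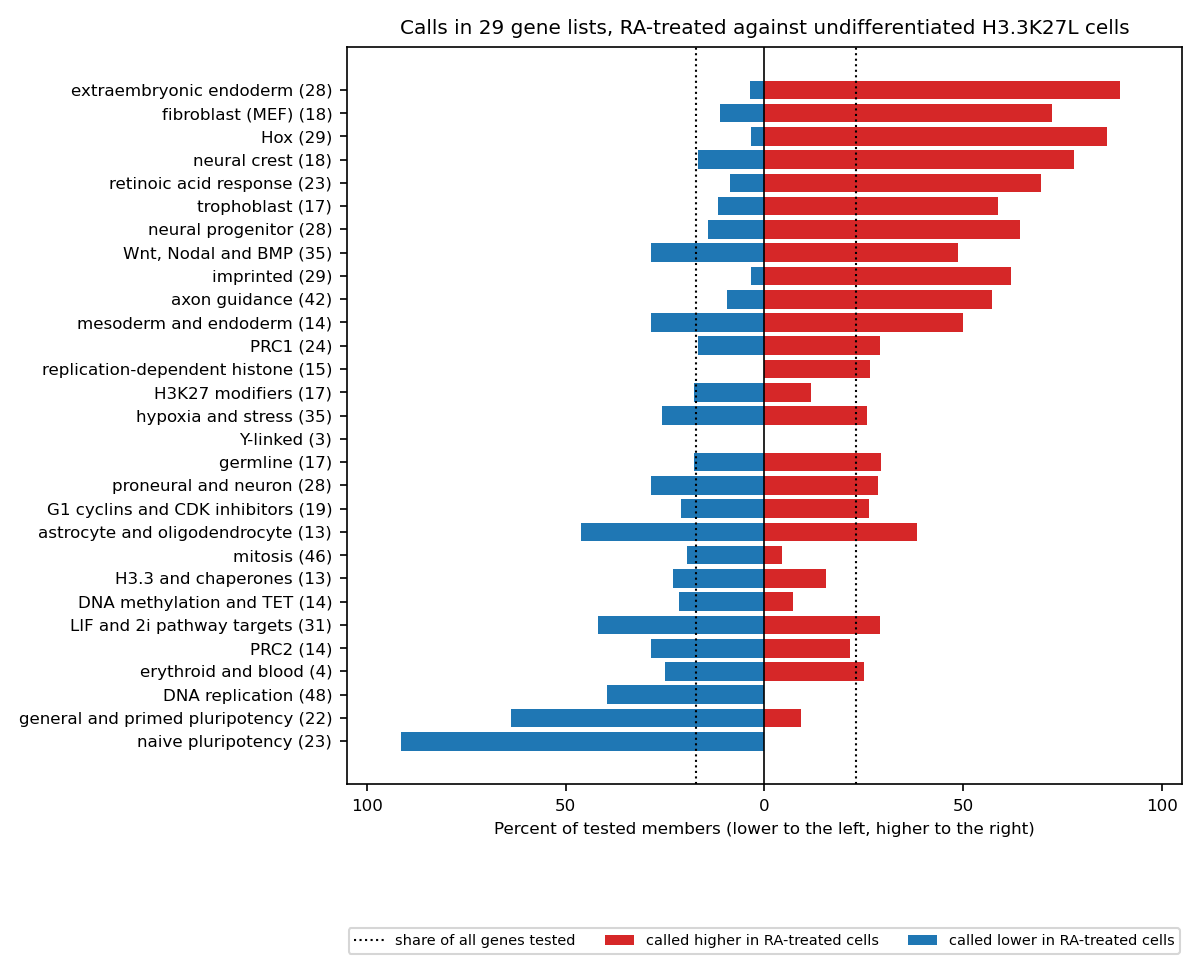
Share of tested members called higher (right) or lower (left) in RA-treated against undifferentiated H3.3K27L cells for 29 gene lists, with the number tested in parentheses and the shares of all genes tested (23% and 17.1%) as dotted lines. Naive pluripotency stands far to the left with 21 of 23 lower, and extraembryonic endoderm (25 of 28) and Hox (25 of 29) far to the right.

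Other lineages were read the same way, and members near 0 in ESCs were again tested only where they rose. Of 17 trophoblast genes, 10 rose (58.8%, against 23% of all genes) and 2, Eomes and Tfap2c, fell (11.8%, against 17.1%). Their median was 2.42, and Cdx2, Tead4, Ets2 and Tfap2a were among those not called. Krt18, an epithelial keratin, had 715 and 377 CPM against 4.37 to 15.7 CPM, and Gata3 had 39.1 and 60.9 CPM against 0.249 to 1.28 CPM. Peg10, a retrotransposon-derived placental gene, had 2839 CPM at 24 h and 93.4 CPM at 72 h against 25.3 to 56.6 CPM. Of 14 mesoderm and endoderm genes, 7 rose and 4 fell (50% and 28.6%, median 1.37). T, the brachyury factor of early mesoderm, was at 0.135 and 0.329 CPM against 3.26 to 19.5 CPM and fell, whereas Wt1 (13.0 and 43.1 CPM against 0.416 to 0.921 CPM) and Osr1 (10.1 and 20.7 CPM, no count in ESCs, at least 292-fold higher), factors of intermediate mesoderm, rose. Of 18 neural crest genes, 14 rose (77.8%) and 3, Tfap2c, Foxd3 and Ngfr, fell (16.7%), with a median of 3.52. Tfap2a was not called. Msx1, a homeobox factor, had 104.9 and 88.5 CPM against 0.498 to 1.69 CPM. Tfap2b (3.78 and 17.1 CPM) and Twist2 (2.29 and 4.61 CPM) had no count in ESCs and were at least 169-fold and 65.6-fold higher.

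Fibroblast genes gave 13 higher and 2 lower of 18 (72.2% and 11.1%, against 23% and 17.1% of all genes), with a median of 5.75. They encode matrix and contractile proteins that other cells make too, and members near 0 in ESCs were again tested only where they rose. Col3a1 had 131 CPM at 24 h and 25 CPM at 72 h, with 1 count in all ESC libraries. Acta2, smooth muscle actin, had 147 and 36.5 CPM against at most 0.369 CPM, and Col1a1 had 64.3 and 11.5 CPM against 0.246 to 1.79 CPM. For all 3 the 24 h library was the higher one. The methods name gelatin dishes for RA treatment, while their mass cytometry section mentions irradiated MEFs in the cultures of ESCs, and the part of fibroblast RNA in these values was not tested. Of 4 erythroid and blood genes tested, Runx1 rose (25.6 and 17.8 CPM against 1.11 to 2.46 CPM) and Spi1 fell, with a median of -0.72. Of 17 germline genes 5, such as Taf7l (26.7 and 48.7 CPM against 0.461 to 2.45 CPM), rose and 3 fell (median -0.12). The germline shares were 29.4% and 17.6%, against 23% and 17.1% of all genes.

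Imprinted genes, expressed from the copy of 1 parent, tended upwards, with 18 of 29 higher and 1 lower and a median log2 fold change of 1.83. Without the 24 h RA-treated library 11 of 27 rose and 3 fell, at a median of 0.84. Dlk1, a Notch ligand-like protein, had 107 and 365 CPM against 0.083, 0.493 and 0.832 CPM. H19, a maternally expressed non-coding RNA, had 33.9 and 35.2 CPM against 0.083, 0.163 and 0.554 CPM. Both RA-treated libraries lay above every ESC library for these genes, with log2 fold changes of 8.89 ± 0.49 and 7.23 ± 0.38. Airn, the antisense RNA of Igf2r, had 16.3 and 2.30 CPM with 1 count in ESCs. Whether the counting used strand is not stated, so Airn and Igf2r reads may be mixed. Grb10, a growth inhibitor, had 487 and 243 CPM against 42.2 to 164 CPM and rose by 1.83 on the log2 scale, but with 1.18 and no call when the 24 h RA-treated library was left out.

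Of 48 DNA replication genes, 19 fell (39.6% against 17.1% of all genes, median log2 fold change -0.85), and none rose by edgeR, by DESeq2 or at an unadjusted p under 0.05. Mcm10, a replication initiation factor, had 69.8 and 65.1 CPM against 256, 265 and 290 CPM (log2 fold change -1.99 ± 0.17), and Pcna, the polymerase clamp, had 145 and 66.1 CPM against 300 to 411 CPM. Of 46 mitosis genes, 9 fell (19.6%, against 17.1% of all genes) and 2 rose (median -0.33), with 19 lower and 6 higher when the 24 h RA-treated library was left out and 5 and 0 when the 72 h library was. The 2 were Birc5, survivin, with 86.1 CPM at 24 h and 879 CPM at 72 h against 127 to 214 CPM, and Plk1, polo-like kinase, with 130 and 638 CPM against 153 to 190 CPM. Both therefore stood below every ESC library at 24 h and above at 72 h, and their log2 fold changes of 1.54 and 1.17 became -0.98 and -0.43 without the 72 h library. With the replicate number as a block the Plk1 call was lost too (1.13, edgeR adjusted p = 0.0574). The Birc5 call was also lost, at 1.44 to 1.51, without any 1 of the 4 replicate 1 ESC libraries.

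Of 19 G1 cyclins and CDK inhibitors, 5 rose and 4 fell (26.3% and 21.1%, against 23% and 17.1% of all genes, median -0.17). Ccnd2, cyclin D2, had 314 and 901 CPM against 4.08, 4.93 and 6.42 CPM (log2 fold change 6.92 ± 0.30, edgeR adjusted p = 4.65e-08). The CDK inhibitors Cdkn1c (69.5 and 56.3 CPM against 1.52 to 4.80 CPM) and Cdkn2a (71.1 and 215 CPM against 12.7 to 17.2 CPM) also rose. Of 15 replication-dependent histone genes tested, 4 rose and none fell (0 by DESeq2 and 0 at an unadjusted p under 0.05 as well), with a median of 0.49, and the list had 7 of 22 higher at a median of 1.37 without the 24 h RA-treated library and 3 of 18 at -0.70 without the 72 h one. Hist1h1c, a linker histone, had 28.8 and 165 CPM against 6.15 to 9.64 CPM.

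PRC2, the methyltransferase complex of H3K27, was measured through 14 genes, of which 4 fell and 3 rose, with a median log2 fold change of -0.53. These shares, 28.6% lower and 21.4% higher, compare with 17.1% and 23% of all genes. Suz12, a core subunit, had 167 and 83.6 CPM against 377, 445 and 574 CPM (log2 fold change -1.89 ± 0.29, edgeR adjusted p = 0.000266). The accessory subunits Mtf2 (126 and 108 CPM against 367 to 521 CPM) and Jarid2 (117 and 145 CPM against 220 to 380 CPM) fell by 1.89 and 1.24. Eed, the subunit that reads trimethylated H3K27, fell by 1.16, and by 0.78 with no call without the 24 h RA-treated library. Ezh2, the catalytic subunit, had 138 and 148 CPM against 205 to 270 CPM, below all ESC libraries, and was not called at the 2-fold limit (log2 fold change -0.70 ± 0.17). Rbbp7, a histone-binding subunit shared with other complexes, rose from 342 to 509 CPM to 1133 and 1425 CPM. Phf1, an accessory subunit, and Ezhip, an inhibitor of PRC2, rose by 1.07 and 1.88, and both calls were lost without the 72 h RA-treated library, at 0.77 and 1.15. Ezhip was low throughout, at 1.75 and 4.28 CPM against 0.163 to 1.23 CPM.

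Of 24 PRC1 genes, 7 rose and 4 fell (median 0.51), with 8 and 8 without the 24 h RA-treated library. Pcgf5, a subunit of variant PRC1, rose from 6.10 to 11.9 CPM to 79.1 and 121 CPM. Of 17 H3K27 modifier genes, 2 rose and 3 fell (median 0.30), and the median was -0.18 without the 24 h RA-treated library. In the DNA methylation and TET list 1 of 14 rose and 3 fell (median -0.48), and 5 fell when the 24 h RA-treated, the 72 h RA-treated, the 4 h replicate 1 ESC or the 8 h replicate 1 ESC library was left out. Tet1 (71.8 and 37.5 CPM against 302 to 649 CPM) and Tet2 (50.5 and 20.1 CPM against 135 to 624 CPM), oxidases of methylated cytosine in ESCs, fell, whereas Tet3 rose from 3.15 to 9.70 CPM to 102 and 34.2 CPM. Uhrf1, the partner of the maintenance methyltransferase, fell from 731 to 942 CPM to 201 and 88.2 CPM. The shares called higher and lower were 29.2% and 16.7% for PRC1 and 11.8% and 17.6% for the H3K27 list. For DNA methylation and TET they were 7.14% and 21.4%, and for all genes 23% and 17.1%.

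The genes of H3.3 itself went in different directions. H3f3b had 764 CPM at 24 h and 1753 CPM at 72 h against 517, 555 and 640 CPM (log2 fold change 1.14 ± 0.24, edgeR adjusted p = 0.00224), and its call was lost at 0.39 without the 72 h RA-treated library. H3f3a had 88.7 and 45.4 CPM against 95.8, 114 and 154 CPM and was not called, with a log2 fold change of -0.78 ± 0.27. Counts on the tagged transgene are not separated from these genes in the tables. In the list of H3.3 and chaperone genes 15.4% rose and 23.1% fell, against 23% and 17.1% of all genes. Of 13 H3.3 and chaperone genes, 2 rose and 3 fell (median -0.47), with none higher and 1 lower without the 72 h RA-treated library, 1 lower without the 4 h or 8 h replicate 1 ESC library and none without the 72 h ESC library. Ubn1, of the HIRA complex, was the other that rose, with 111 and 395 CPM against 53.4 to 65.8 CPM, and its log2 fold change of 2.10 became 0.88 with no call without the 72 h RA-treated library. Atrx and Supt16 fell by 1.03 and 1.5 in the full set, and without that library by 0.81 and 0.89 with no call. Supt16 lies on chromosome 14 and had 371 and 101.3 CPM against 386 to 1035 CPM. Its call was also lost without any 1 of the 4 replicate 1 ESC libraries (-1.47 to -1.37), and that of Atrx without the 4 h, 8 h or 72 h replicate 1 ESC library (-1.0 to -0.96). Nasp fell by 1.04, and by 0.84 and 0.98 with no call without the 24 h RA-treated and the 72 h ESC library.

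Of 31 targets of LIF and of the 2i pathways, 13 fell and 9 rose (median -0.52). Etv5, an ETS factor of FGF signalling, had 13.1 and 12.8 CPM against 227 to 353 CPM, while the immediate early gene Egr1 had 86.7 and 104 CPM against 1.01 to 14.7 CPM and Phlda1 33.6 and 279 CPM against 0.979 to 3.89 CPM. The list thus held both directions within targets of the same pathway. Of 35 Wnt, Nodal and BMP genes, 17 rose and 10 fell (48.6% and 28.6%), with a median of 1.85. The Nodal pathway members Nodal, Lefty1, Lefty2 and Tdgf1 were all among those that fell.

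Of 35 hypoxia and stress genes, 9 rose and 9 fell (25.7% each, against 23% and 17.1% of all genes, median -0.05). P4ha1 and P4ha2, collagen prolyl hydroxylases, had 452 and 387 CPM against 23.8 to 51.3 CPM and 158 and 122 CPM against 2.71 to 10.1 CPM. Ddit4, an inhibitor of mTOR signalling, had 116 and 187 CPM against 17.2, 21.0 and 76.4 CPM (log2 fold change 2.22 ± 0.46). A2m, a protease inhibitor, fell by 4.03. Vegfa, the vascular growth factor, had 87.9 and 60.2 CPM and overlapped the 72 h ESC library at 63.8 CPM, and its log2 fold change of 1.66 became 1.30 with no call without the 24 h RA-treated library. With the replicate number as a block Vegfa (1.54, edgeR adjusted p = 0.0700) and Bhlhe40 (1.29, 0.0558) were not called. Ier3, Bhlhe40 and Gata2 rose by 2.64, 1.23 and 1.15. Without the 72 h RA-treated library these became 0.20, 1.00 and 0.83 with no call, and the Bhlhe40 call was also lost at 1.16 to 1.35 without the 24 h RA-treated library or the ESC library of 24 h replicate 1, 4 h replicate 2 or 8 h replicate 1. Grin1 (0.675 and 0.329 CPM against 0 to 3.07 CPM) was not called, and Ptgs2 (1.08 and 1.64 CPM against 0.498 to 1.38 CPM) was too low to test.

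The 24 h and 72 h RA-treated libraries went the same way for most of the lists. The median log2 difference from the ESC mean was -4.49 at 24 h and -4.83 at 72 h for naive pluripotency, where single ESC libraries varied from -0.08 to 0.11. It was 5.79 and 4.89 for extraembryonic endoderm and 1.83 and 1.77 for neural progenitors. For DNA replication it was -0.95 and -0.81. Among all tested genes, 857 lay above all ESC libraries at 24 h and below all at 72 h, and 648 did the reverse.

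**Figure D3:**
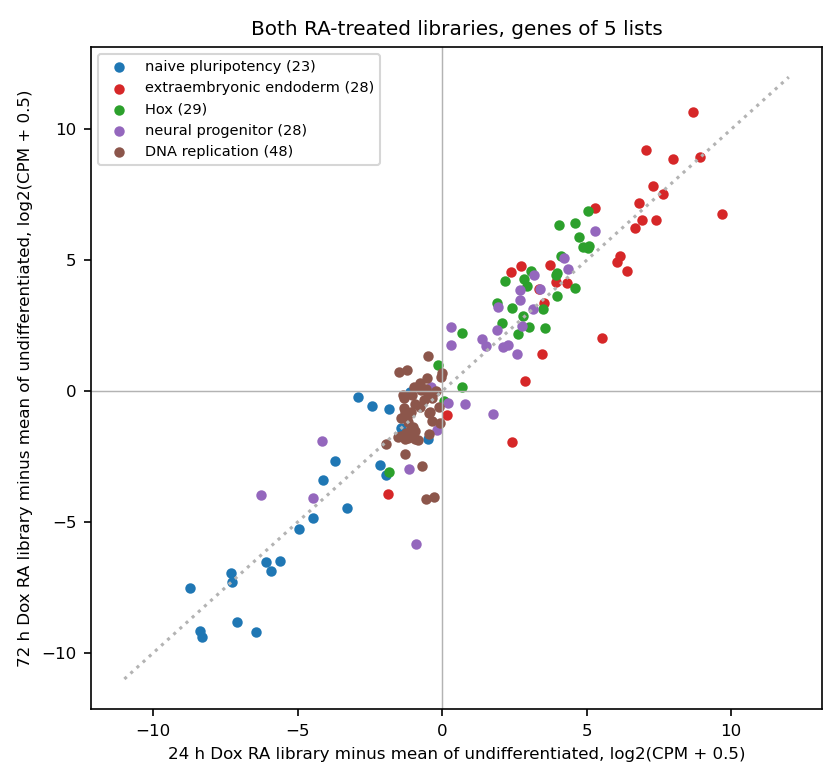
Difference from the mean of the 7 ESC libraries in log2(CPM + 0.5) for genes of 5 lists, with the 24 h RA-treated library on the horizontal axis and the 72 h library on the vertical axis. Naive pluripotency lies at the lower left (medians -4.49 and -4.83) and extraembryonic endoderm at the upper right (5.79 and 4.89), and the points scatter around the dotted line of equal change.

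The RA response of H3.3K27L was then compared with that of WT-H3.3 and H3.3K27M through an interaction test over 29 libraries, with 2 RA-treated and 8 ESC libraries in each of the other lines and a term for Dox time in RA-treated cells. The lines share no libraries, but the H3.3K27L libraries enter both comparisons. Against WT-H3.3, 48 of 15537 genes (0.309%) had a larger and 25 (0.161%) a smaller log2 fold change in H3.3K27L, 0.47% in all. Against H3.3K27M the counts were 225 (1.45%) and 128 (0.824%), or 2.27% in all. Without the 72 h RA-treated WT-H3.3 library no gene was called against WT-H3.3 by edgeR (421 larger and 282 smaller at an unadjusted p under 0.05 and over 2-fold). Without the 24 h RA-treated H3.3K27L library 4 larger and 3 smaller were, and without the 72 h one 11 and 1. Against H3.3K27M 20 larger and 3 smaller were called without its 24 h RA-treated library, 114 and 58 without its 72 h one, and 97 and 33 or 68 and 16 without the 24 h or 72 h RA-treated H3.3K27L library. DESeq2, run on all 29 libraries, called 83 larger and 76 smaller against WT-H3.3, and edgeR with the replicate number as a block 79 and 40.

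Sparc stood at 5488 and 6348 CPM in the RA-treated H3.3K27L libraries, 2132 and 3247 CPM in WT-H3.3 and 1141 and 1945 CPM in H3.3K27M, on the scale of the 29 libraries. Its ESC medians were 383, 433 and 374 CPM. The log2 fold change was larger in H3.3K27L by 1.33 ± 0.23 against WT-H3.3 (edgeR adjusted p = 0.00609) and by 2.10 ± 0.23 against H3.3K27M (3.23e-06). Dab2 had 489 and 486 CPM, 281 and 196 CPM, and 107 and 204 CPM in the same order of lines, but its ESC medians were 0.585, 3.04 and 2.51 CPM. Its differences of 3.44 and 3.89 thus hold a lower start in H3.3K27L ESCs as well as a higher level after RA. Srgn had 202 and 178 CPM, 56.9 and 43.5 CPM, and 25.6 and 37.6 CPM, with ESC medians of 0.621, 0.757 and 0.909 CPM, and differed by 2.47 and 3.19.

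Lgmn, the lysosomal protease legumain, stood at 832 and 422 CPM in RA-treated H3.3K27L cells, at 415 and 161 CPM in those of WT-H3.3 and at 118 and 115 CPM in H3.3K27M, with differences of 1.58 and 2.88. Cndp2, a dipeptidase, had 237 CPM at 24 h and 48.8 CPM at 72 h, where the WT-H3.3 line had 152 and 17.8 CPM, with a difference of 1.49 (1.89 against H3.3K27M). Cubn and Gata4 were called only against H3.3K27M, by 4.50 and 2.09, and the same tests against WT-H3.3 gave 3.03 (adjusted p = 0.0533) and 1.37 (0.27). Gata6, Sox17, Foxa2 and Pth1r differed by 0.15 to 1.29 against WT-H3.3 and 0.64 to 1.55 against H3.3K27M and were called in neither.

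In the interaction test 4 of the 31 extraembryonic endoderm genes tested (Dab2, Lrp2, Sparc and Srgn) had a larger log2 fold change than WT-H3.3 and 11 than H3.3K27M. Of all genes, 0.309% and 1.45% did. With no Dox time term, the larger calls over all genes fell from 48 to 4 against WT-H3.3 and from 225 to 72 against H3.3K27M. As a level, 26 of the 31 (83.9%) were higher in H3.3K27L than in both other lines at 24 h and at 72 h, where 18.4% of all genes were. The list was written with earlier results of these data known, so this share is a description and not independent support. The 6 marker genes of the lineage summed to 6502 and 2036 CPM in RA-treated H3.3K27L cells, to 3315 and 762 CPM in the WT-H3.3 line and to 972 and 662 CPM in H3.3K27M. In H3.3K27L Lama1 made up most of the 24 h sum, so the sums do not stand for all 6 genes alike. The ESC and oligodendrocyte markers also summed highest in H3.3K27L at both times. Those of ESCs summed to 257 and 235 CPM, against 128 and 92.1 CPM in WT-H3.3 and 103 and 98.7 CPM in H3.3K27M. Neural progenitor, neuron, trophoblast, fibroblast and blood markers summed lowest in H3.3K27L. Those of neural progenitors summed to 165 and 79.4 CPM, against 284 and 112 CPM and 460 and 153 CPM. The comparison rests on 2 RA-treated libraries a line, each time with 1 library. Differences between cultures cannot be told apart from those between lines. The naive pluripotency list was above both other lines at both times for 30.4% of its genes, the neural progenitor list for 13.8%, the Hox list for 15.2% and the RA response list for 12%. After extraembryonic endoderm, hypoxia and stress (58.3%) and mitosis (45.7%) had the next highest shares. RA response genes were below both other lines for 19 of 25 at 24 h (76%) and 18 of 25 at 72 h (72%). Hox genes were for 23 and 22 of 33 (69.7% and 66.7%). Of all genes, 39.0% were below both at 24 h and 33.5% at 72 h.

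**Figure D4:**
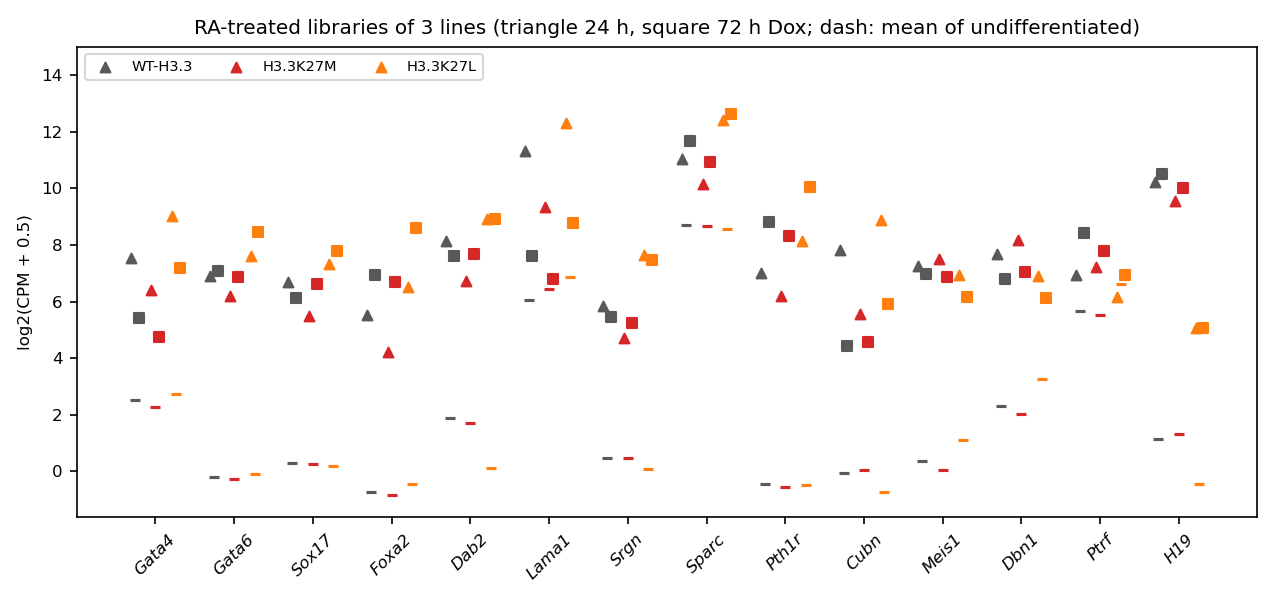
Levels as log2(CPM + 0.5) of 14 genes in the RA-treated libraries of each line (triangle 24 h, square 72 h of Dox), with a dash for the ESC mean of each line. The H3.3K27L points lie above those of both other lines from Gata4 to Cubn at matched Dox times, and below them for Meis1, Dbn1, Ptrf and H19.

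Among the genes with smaller responses in H3.3K27L, Ptrf, the caveolar coat protein cavin-1, had 71.1 and 121 CPM in RA-treated H3.3K27L cells, 122 and 346 CPM in WT-H3.3 and 148 and 220 CPM in H3.3K27M, and its H3.3K27L ESC median of 96.7 CPM was above those of 47.4 and 49.3 CPM. The log2 fold change was -0.54 in H3.3K27L, 1.56 in WT-H3.3 and 1.51 in H3.3K27M, smaller in H3.3K27L by 2.10 and 2.05. Dbn1, the actin-binding drebrin, differed by -1.79 and -2.46, Hspb8, a small heat shock protein, by -2.36 and -1.62, and Foxp4, a forkhead factor, by -1.38 and -1.46. Meis1 had log2 fold changes of 6.04 in H3.3K27L, 7.75 in WT-H3.3 and 8.34 in H3.3K27M, smaller in H3.3K27L by 1.71 and 2.31, with RA-treated levels of 123 and 70.5 CPM against 155 and 125 CPM in WT-H3.3. Against H3.3K27M alone, Bcat1, a transaminase, and Pdlim7, an actin-associated LIM protein, were among the 4 smaller genes of the lowest adjusted p, at -1.30 and -1.40.

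Most imprinted genes were lower in RA-treated H3.3K27L cells than in both other lines, 19 of 30 at 24 h (63.3%, against 39.0% of all genes) and 21 of 30 at 72 h (70.0%, against 33.5%). H19 was one of them. RA-treated H3.3K27L cells had 32.8 and 33.1 CPM, WT-H3.3 cells had 1192 and 1459 CPM and H3.3K27M cells had 750 and 1046 CPM, and in ESCs the medians were 0.165, 1.79 and 1.93 CPM. The log2 fold change was smaller in H3.3K27L by 2.39 ± 0.45 against WT-H3.3 (edgeR adjusted p = 0.00902) and by 1.59 ± 0.44 against H3.3K27M (0.0757, not called). Dlk1 and Zim1, a zinc finger gene, had larger log2 fold changes than in WT-H3.3, by 2.68 and 3.75, with lower ESC levels in H3.3K27L for Dlk1. Hoxd8 was the only Hox gene called with a larger log2 fold change than in WT-H3.3 (3.20), at 12 and 8.96 CPM in RA-treated H3.3K27L cells and 10.4 and 12.2 CPM in WT-H3.3, with ESC medians of 0.372 and 3.19 CPM. Fbxo15 had log2 fold changes of -2.95 in H3.3K27L, -4.76 in WT-H3.3 and -5.27 in H3.3K27M in the model with Dox time, with differences of 1.81 and 2.32, and Slc6a15, an amino acid transporter, differed by 2.08 and 2.23. Sparc, Srgn, Cubn, Lgmn, Cndp2, Dbn1, Ptrf and Fbxo15 were called against H3.3K27M without any 1 library of the 29, whereas none of the named genes was called against WT-H3.3 without its 72 h RA-treated library.

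The RNA level of chromosomes 8 and 14 differed among the H3.3K27L libraries, and DNA copy number was not read here. From karyotyping, the methods report a possible duplication of chromosome 8 in every clone. Relative to WT-H3.3 cells of the same state, genes of chromosome 14 had a median log2 difference of 0.55 to 0.59 in the 4 replicate 1 ESC libraries, -0.03 to -0.01 in the 3 replicate 2 libraries, and 0.57 and 0.59 in the RA-treated libraries. For chromosome 8 it was -0.07 to 0.03, -0.50 to -0.49, and 0.01 and 0.05. The RA-treated libraries thus stood with the replicate 1 ESCs for both chromosomes. Against all 7 ESC libraries the median log2 fold change was 0.23 on chromosome 14 and 0.17 on chromosome 8, and against the replicate 1 ESCs alone it was -0.07 and -0.10. On chromosome 14, 28.6% of tested genes were called higher and 11.2% lower. Rarb, Gata4, Zfp503, Klf5 and Supt16 lie on it, and the part of dosage in their values was not tested.

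Reads of 9 Y-linked genes summed to 28 to 81 counts in the RA-treated and 20 to 283 counts in the ESC libraries of H3.3K27L, or 8.66 to 10.6 and 1.93 to 27 CPM. WT-H3.3 libraries held 139 to 204 CPM after RA and 215 to 297 CPM in ESCs, and H3.3K27M libraries 141 to 190 and 217 to 283 CPM. Low Y-linked RNA was therefore shared by all 9 H3.3K27L libraries, RA-treated or not, and set this line apart from the others in both states. Of the 3 Y-linked genes tested, 0 were called between RA-treated and undifferentiated H3.3K27L cells by edgeR, 0 by DESeq2 and 0 at an unadjusted p under 0.05 (median log2 fold change -0.10).

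**Figure D5:**
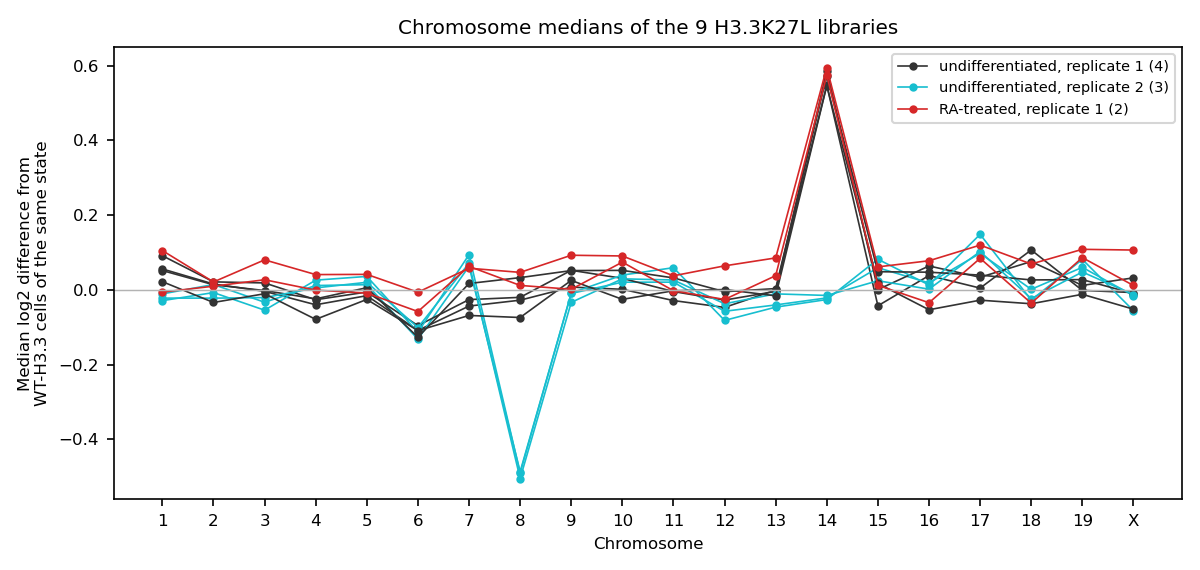
Median log2 difference of each chromosome from WT-H3.3 cells of the same state in the 9 H3.3K27L libraries, with RA-treated libraries in red, replicate 1 ESCs in dark grey and replicate 2 ESCs in cyan. On chromosome 14 the RA-treated and replicate 1 libraries lie between 0.55 and 0.59 and replicate 2 between -0.03 and -0.01, and on chromosome 8 replicate 2 lies between -0.50 and -0.49.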

How the data were processed

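RNA-seq reads were aligned by the authors with STAR 2.7.1 to mm9, according to the submitters' processing notes, and raw counts per gene were deposited, and these were analysed without further alignment. The tables held 55471 genes, of which 32589 had an mm9 position, and 2532 genes of chromosome 8 (5.82% of counts, 1097 of them placed by their neighbours in the tables) were left out, as in the study. The methods describe replicates as separate cultures, but both RA-treated libraries are replicate 1. No libraries were copies (smallest chi-square per gene 2.71).

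Counts were normalized by TMM, filtered with filterByExpr and tested by the quasi-likelihood test of edgeR 4.0.16 (R 4.3.3), with 1 mean for the 2 RA-treated and 1 for the 7 ESC libraries, and by an interaction of line and treatment over 29 libraries with a term for Dox time in RA-treated cells. SE is the log2 fold change divided by the root of F. DESeq2 1.42.0, other scalings, filters, models, libraries left out and thresholds were alternatives. In counts simulated at the dispersion of the first comparison (0.0991), 30.5% of 200 changes of 2.5-fold and 93% of 200 of 5-fold were called among 12851 and 12901 genes, and in the interaction with WT-H3.3 (dispersion 0.0478) 21.5% and 78.5% among 14175 and 14222.

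The members and the 29 gene lists, written by hand from general knowledge, were chosen with earlier results of these data known. Named were the 6 genes of the lowest adjusted p in each direction whose libraries did not overlap, up to 6 called and 4 other members of each list, 4 genes in each direction of each interaction, genes the study names, and all PRC2, H3.3 and Y-linked genes. Not all were printed, and a withheld item is not reported here. Markers of cell types and a few further members of lists were named after their values were seen.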

Additional observations from a re-analysis of the deposited data

Results flagged for a closer look

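Among 124 named genes, a single ESC library stood apart from the other 6 in 17, where the gap to its neighbour divided by the range passed the 95% critical value of Dixon's test for 7 values. For normal values chance marks about 1 group in 20. That rate does not apply to Cyp26a1, Dcx, Col3a1 and Airn, where 1 count in the 7 libraries fixes the ratio at 1. The 72 h library was also the only one of its Dox time. The 72 h replicate 1 library was the one that stood apart for Stra6 (0.326 CPM), Hoxb8 (0.326), Sox9 (0 CPM), Nes (81.6), Krt18 (15.7), Nasp (1346), Uhrf1 (731), P4ha2 (10.1), Vegfa (63.8) and Ddit4 (76.4). The 24 h replicate 1 library was highest for Cyp26a1 (0.139 CPM) and Airn (0.139 CPM), the 8 h replicate 1 library for Meis1 (2.61 CPM) and Col3a1 (0.0512 CPM), the 4 h replicate 2 library for Dcx (0.137 CPM), and the 24 h replicate 2 library for H3f3a (154 CPM) and Pcgf5 (11.9 CPM). The values under 0.4 CPM other than 0 are 1 or 2 counts.

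The RA response differed between lines by the interaction test of edgeR (adjusted p under 0.05 and over 2-fold) for 44 gene and line pairs. Against WT-H3.3 the log2 fold change in H3.3K27L was larger for Dab2 (3.44), Srgn (2.47), Sparc (1.33), Col27a1 (1.73), Fbxo15 (1.81), Hoxd8 (3.20), Dlk1 (2.68), Zim1 (3.75), Cndp2 (1.49), Slc6a15 (2.08) and Lgmn (1.58). It was smaller for Meis1 (-1.71), H19 (-2.39), Ptrf (-2.10), Hspb8 (-2.36), Dbn1 (-1.79) and Foxp4 (-1.38). None of these calls was made without the 72 h RA-treated WT-H3.3 library.

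Against H3.3K27M it was larger for Dab2 (3.89), Srgn (3.19), Sparc (2.10), Col27a1 (2.19), Fbxo15 (2.32), Klf4 (1.44), Hoxd8 (2.19), Cubn (4.50), Gata4 (2.09), Lama1 (2.03), Pcgf5 (1.83), Grb10 (2.52), P4ha2 (1.79), P4ha1 (2.65), Cndp2 (1.89), Slc6a15 (2.23) and Lgmn (2.88). It was smaller for Meis1 (-2.31), Peg10 (-1.59), Wt1 (-2.32), Ccnd2 (-1.69), Ptrf (-2.05), Hspb8 (-1.62), Dbn1 (-2.46), Foxp4 (-1.46), Bcat1 (-1.30) and Pdlim7 (-1.40).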

How the results depend on the processing

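The 3052 higher and 2276 lower calls became 1471 and 956 with a Dox time block in the 24 h and 72 h libraries, 1953 and 1277 with the ESC libraries of 24 h and 72 h only, 1760 and 1068 with at least 10 counts in every library, and 1693 and 1172 at 4-fold. With single libraries left out they ranged from 2905 to 3224 and from 2113 to 3914 (without RA 24 h). The 10-count filter removed genes absent from either state, and left 9 lower naive pluripotency genes (21 before), 8 higher RA response genes (16), 0 Hox genes (25, with 2 still tested), 6 extraembryonic endoderm genes (25) and 7 neural progenitor genes (18). Single libraries left out gave 18 to 22, 14 to 16, 23 to 26, 24 to 27 and 17 to 18, and 13 to 18 lists (15) with more higher than lower calls.

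Against WT-H3.3, the 48 larger and 25 smaller responses became 83 and 76 by DESeq2, 4 and 3 with no Dox time term, 411 and 371 in replicate 1 libraries only, and 0 to 62 and 0 to 35 with single libraries left out. Against H3.3K27M, 225 and 128 became 72 and 27 with no Dox time term, 415 and 384 in replicate 1 libraries, and 20 to 245 and 3 to 135. The causes were not tested.

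The methods describe replicates as experiments done weeks apart. The RA-treated libraries are all replicate 1, so a replicate block sets them against the replicate 1 ESCs, and replicate 2 has no RA-treated library to pair. The block gave 3080 higher and 2286 lower calls (2851 and 2055 of them also called without it), and 79 and 40 against WT-H3.3. Of the 119 named genes it ended the calls of Plk1, Vegfa and Bhlhe40.

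With replicate 1 ESCs alone the median log2 fold change of chromosome 8 was -0.10 in place of 0.17 and that of chromosome 14 -0.068 in place of 0.23, and with single libraries left out they were 0.06 to 0.26 and 0.11 to 0.27. List medians changed sign for proneural and neuron genes (0.50 with 29 libraries and 0.44 with every gene of at least 1 count), astrocyte and oligodendrocyte genes (1.02, 0.94 and, with the 10-count filter, 1.49), erythroid and blood genes (3.54 and 1.58), and with the 10-count filter for mesoderm and endoderm (-0.10) and hypoxia and stress (0.27). With single libraries left out, medians ranged across 0 from -1.58 to 0.28 for proneural and neuron, -1.43 to 0.024 for astrocyte and oligodendrocyte, -0.18 to 0.34 for H3K27 modifiers, -0.28 to 0.28 for germline and -0.70 to 1.37 for replication-dependent histone genes, and log2 fold changes from -0.98 to 2.34 for Birc5 and -0.43 to 1.84 for Plk1. Of 119 named genes, 91 kept their calls and directions in the alternatives that tested them. Only 52 were tested in all 22 alternatives, and 32 of these kept both.

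Among the 9 H3.3K27L libraries depth was lowest in the 72 h RA-treated one (3268238 counts), and 3 counts over the RA-treated group are 0.287 CPM, so lower levels there could not be resolved.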
